A study of Mus musculus with 6 samples.

Results

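The 7 sirtuin genes of the mouse, *Sirt1* to *Sirt7*, were followed in the liver of aged WT and *Sirt7* KO mice. They were taken by gene symbol, as the whole family, and make up 7 of the 54115 genes and 59 of the 140992 transcripts in the quantified transcriptome. RNA-seq of liver was available for 3 WT and 3 *Sirt7* KO mice, all male, 24 months old and fasted for 16 h. The *Sirt7* KO allele was carried on a C57BL/6J background after repeated backcrossing, and WT and *Sirt7* KO mice were littermates of heterozygous crosses. Each genotype thus comes from 1 line, and no mouse received a treatment. The comparisons asked how much RNA of each sirtuin the aged liver holds, which isoforms carry it, and whether the other 6 sirtuins differ when *Sirt7* is disrupted.

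Sirtuins remove acetyl and other acyl groups from lysines and consume NAD in the reaction, which ties their activity to the energy state of the cell. SIRT1, SIRT6 and SIRT7 are found mainly in the nucleus (SIRT7 mostly in the nucleolus), SIRT2 mainly in the cytosol, and SIRT3, SIRT4 and SIRT5 in mitochondria. In liver, SIRT1 and SIRT6 are known for the control of glucose and lipid metabolism, and SIRT3 for the deacetylation of enzymes of fatty acid oxidation in fasting.

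All members share a catalytic core, and 2 short stretches of it are shown because they define the family and because the isoforms described below differ in whether they hold them. The first, of 13 codons, is the glycine-rich loop that binds NAD. Capitals mark the bases that are the same in all 7 genes (10 of 39).
Sirt1: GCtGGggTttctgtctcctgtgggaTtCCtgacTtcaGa
Sirt2: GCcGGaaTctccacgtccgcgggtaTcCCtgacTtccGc
Sirt3: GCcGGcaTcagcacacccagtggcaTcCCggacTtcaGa
Sirt4: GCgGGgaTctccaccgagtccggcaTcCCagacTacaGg
Sirt5: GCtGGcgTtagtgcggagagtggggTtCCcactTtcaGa
Sirt6: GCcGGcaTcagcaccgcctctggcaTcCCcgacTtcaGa
Sirt7: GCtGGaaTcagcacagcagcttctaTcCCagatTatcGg
The second stretch, of 11 codons, lies further along the core and includes residues that contact NAD. Capitals again mark bases shared by all 7 genes (10 of 33).
Sirt1: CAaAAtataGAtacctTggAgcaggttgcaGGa
Sirt2: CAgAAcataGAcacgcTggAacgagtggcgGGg
Sirt3: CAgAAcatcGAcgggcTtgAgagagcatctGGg
Sirt4: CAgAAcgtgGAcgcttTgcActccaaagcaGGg
Sirt5: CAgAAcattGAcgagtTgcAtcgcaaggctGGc
Sirt6: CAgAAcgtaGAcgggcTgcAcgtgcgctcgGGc
Sirt7: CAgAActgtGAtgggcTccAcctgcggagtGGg
All were read 5′ to 3′ from GENCODE M21 transcripts of GRCm38, from the isoform with the most reads that codes for both. Over the first stretch *Sirt7* shared 64.1% of its bases with *Sirt2* and *Sirt6* but 41.0% with *Sirt1* and 43.6% with *Sirt5*. No run of 31 bases was shared between any 2 sirtuins, so no stretch of that length can be credited to 2 of them.

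In *Sirt7* (chr11:120618372-120625240, minus strand) the full-length isoform *Sirt7-201* has 10 exons. Its exons 3 to 6 are shown because the 2 stretches lie in them and because the reads of *Sirt7* KO mice were assigned to isoforms that lack part of them. Capitals mark the core stretches.
Exon 3: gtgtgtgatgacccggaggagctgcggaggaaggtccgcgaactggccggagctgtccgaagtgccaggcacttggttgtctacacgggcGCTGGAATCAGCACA
Exon 4: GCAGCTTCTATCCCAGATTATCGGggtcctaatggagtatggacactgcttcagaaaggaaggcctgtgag
Exon 5: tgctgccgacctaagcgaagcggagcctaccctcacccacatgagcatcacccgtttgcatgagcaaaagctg
Exon 6: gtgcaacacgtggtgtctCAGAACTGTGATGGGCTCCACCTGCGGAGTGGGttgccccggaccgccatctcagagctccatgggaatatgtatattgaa
Exon 4 (chr11:120622141-120622211) and exon 5 (chr11:120621981-120622053) are coding throughout, with 71 and 73 bases. The first stretch begins in exon 3, where it has 15 bases, and ends with 24 bases in exon 4. The second lies within exon 6 (chr11:120620957-120621055).

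The libraries held 9994860 to 13424776 assigned reads, of which 2500 to 3812 fell on sirtuins. On the first principal component (34.6% of the variance) *Sirt7* KO 1, at -11.4, lay nearer to the WT mice (-34.4 to -14.4) than to the other *Sirt7* KO mice (34.1 and 41.4), and it stood apart from all mice on the second. Without it the number of genes called between genotypes was 252 of 12921 instead of 1 of 12524, and none of them was a sirtuin. Hepatocyte markers dominated every library, with a summed level of 57144 to 62522 CPM in WT mice and 56247 to 68242 CPM in *Sirt7* KO mice. The summed markers of Kupffer cells, endothelium, stellate cells, cholangiocytes and lymphocytes overlapped between genotypes. Those of 5 erythroid genes did not, at 208 to 263 CPM in WT and 302 to 545 CPM in *Sirt7* KO mice. Of these genes *Alas2*, of heme synthesis, had 49.6 to 94.5 CPM in WT and 129 to 235 CPM in *Sirt7* KO mice, while the globin gene *Hbb-bs* had 60.7 to 118 and 59.3 to 149 CPM. The part of this difference in the values below was not tested. In bulk liver, fewer cells of a type and less RNA per cell cannot be told apart.

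Levels of different genes were compared per length, in TPM (the share of a transcript among all transcripts, corrected for length) summed over the isoforms of a gene. *Sirt3*, the main mitochondrial deacetylase, was highest in every mouse. Its level was 120, 116 and 107 TPM in WT 1, WT 2 and WT 3, which ranked 895 by WT mean among 24988 genes with any TPM in WT mice. It alone made up 56.9% of the family's TPM in WT mice, and its mean was 111 times that of *Sirt6*. In *Sirt7* KO mice its level was 82.1, 117 and 124 TPM, or 49.4% of the family's TPM.

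*Sirt7* and *Sirt2* followed in WT mice, at 30.0 ± 3.81 and 26.3 ± 3.17 TPM (mean ± SD, n = 3). Their ranges overlapped, and *Sirt7* was above *Sirt2* in 2 of 3 mice, so their order is not separable from the spread. *Sirt5* came next at 17.4 ± 2.02 TPM and *Sirt4* at 10.7 ± 3.94 TPM. Both steps held in 3 of 3 WT mice with no overlap. *Sirt1* (1.43 ± 0.281 TPM) and *Sirt6* (1.04 ± 0.360 TPM) were lowest and overlapped each other. The step from *Sirt4* down to *Sirt1* was 7.48-fold. Both of these low members encode nuclear proteins, while *Sirt7*, the other nuclear member, was among the higher ones.

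In *Sirt7* KO mice the order by mean was the same. *Sirt2* and *Sirt5* overlapped there, as did *Sirt5* and *Sirt4* and also *Sirt1* and *Sirt6*. With protein-coding transcripts only, *Sirt5* had 17.5 ± 2.86 TPM and *Sirt4* 4.18 ± 1.36 TPM in *Sirt7* KO mice. In WT mice they had 17.2 ± 1.87 and 3.41 ± 1.46 TPM on that measure. *Sirt7* was above *Sirt2* in 3 of 3 *Sirt7* KO mice, at 34.7, 49.9 and 68.0 TPM. This is a level per length, and the reads behind it were fewer, as described below. The short isoform *Sirt7-202*, of 427 bases, made up 20.2, 26.8 and 42.4 TPM of it in these mice. In WT mice that isoform had 0.913, 2.09 and 0 TPM.

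**Figure D1:**
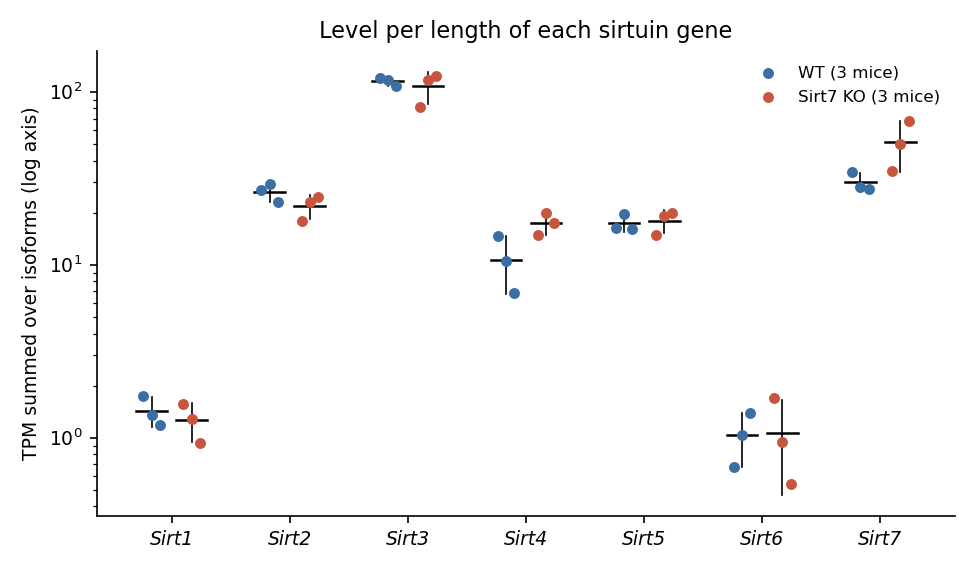
Level of each sirtuin gene in TPM on a log axis, 1 point per mouse, for WT (blue) and *Sirt7* KO (red) mice, with the mean as a horizontal line and ± 1 SD as a vertical line (n = 3). *Sirt3* is highest in every mouse and *Sirt1* and *Sirt6* lie near 1 TPM. *Sirt4* and *Sirt7* are the members whose genotypes do not overlap, with *Sirt7* KO mice higher for both. For *Sirt4* the gap is small, from 14.70 TPM in WT 1 to 14.75 TPM in *Sirt7* KO 1. The share of all genes without overlap in TPM was not computed.

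Between genotypes, levels were compared as CPM (counts of the gene scaled to a common library size, with TMM factors) with edgeR's quasi-likelihood test, and a call needed an adjusted p under 0.05 and a fold change over 1.5. None of the 7 sirtuins was called, where 0.00798% of 12524 tested genes were. At an unadjusted p under 0.05 there were 2 sirtuins, *Sirt4* and *Sirt7*, beside 11.3% of all tested genes. For *Sirt7* this unadjusted p was over 0.05 with DESeq2 (0.062), with coding transcripts only (0.14) and when any mouse other than *Sirt7* KO 2 was left out (0.053 to 0.13). For *Sirt4* it was over 0.05 with total counts (0.060), with coding transcripts only (0.46), without WT 2 (0.051) and without *Sirt7* KO 3 (0.060). In CPM the same 2 did not overlap between genotypes, beside 16.8% of all genes. *Sirt4* was higher and *Sirt7* lower in *Sirt7* KO mice, while by TPM both were higher. DESeq2 also called none of the 7, where it called 256 of 14348 genes. The summed level of *Sirt1* to *Sirt6* was 244, 262 and 235 CPM in WT mice and 200, 248 and 258 CPM in *Sirt7* KO mice. These ranges overlapped, with a ratio of means of 0.954 (exact permutation test, two-sided, p = 0.80, where 3 against 3 mice cannot go below 0.1).

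Among the nuclear members, *Sirt7* had 55.2, 45.5 and 47.3 CPM in WT mice and 28.6, 41.7 and 40.8 CPM in *Sirt7* KO mice. The genotypes did not overlap, with the *Sirt7* KO values lower and *Sirt7* KO 1 lowest. The log2 fold change was -0.41 ± 0.18 (SE; edgeR, adjusted p = 0.42), with a 95% interval of 0.567 to 0.993 in fold. Reads were thus still assigned to the locus in *Sirt7* KO mice at 0.751 times the WT mean. Without *Sirt7* KO 1 the log2 fold change was -0.26. When the average isoform length of each gene entered as an offset, the sign turned, to 0.80 with edgeR (adjusted p = 0.27) and 0.81 with DESeq2 (adjusted p = 0.071). *Sirt7* also shares 124 exonic bases with *Mafg* on the same strand, which encodes a small Maf transcription factor. *Mafg* reads, not scaled to library size, were 1003, 1198 and 1113 in WT and 579, 800 and 836 in *Sirt7* KO mice. The libraries differ in depth, so these reads do not show by themselves whether the genotypes overlap. The part of the shared bases in the *Sirt7* counts was not tested.

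*Sirt1* (chr10:63319005-63381704), which deacetylates transcription factors and coactivators of fasting metabolism, had 3.98, 3.18 and 2.96 CPM in WT mice and 3.02, 2.54 and 2.02 CPM in *Sirt7* KO mice. The genotypes overlapped, and the 95% interval of the difference ran from 0.441 to 1.28 in fold. *Sirt6* (chr10:81621785-81627797), a chromatin deacetylase that acts on glycolytic genes and DNA repair, had 1.10, 1.63 and 1.33 CPM in WT mice. In *Sirt7* KO mice it had 1.92, 1.80 and 1.06 CPM. These ranges overlapped too, and with 11 to 21 reads per mouse the interval was wide, from 0.578 to 2.40 in fold, which leaves room for a doubling.

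*Sirt2* (chr7:28766735-28788661), the cytosolic member that acts on tubulin and other proteins, had 45.8, 50.5 and 42.8 CPM in WT mice and 36.4, 42.2 and 44.8 CPM in *Sirt7* KO mice. The genotypes overlapped, with a log2 fold change of -0.17 ± 0.14 (edgeR, adjusted p = 0.71) and an interval of 0.707 to 1.11 in fold.

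Among the mitochondrial members, *Sirt3* (chr7:140863666-140882309) had 153, 159 and 148 CPM in WT mice and 118, 154 and 162 CPM in *Sirt7* KO mice. *Sirt7* KO 1 was low and the other *Sirt7* KO mice lay within or above the WT range. The interval was 0.740 to 1.21 in fold. *Sirt5* (chr13:43365496-43395203), which removes succinyl and malonyl groups, had 30.7, 39.5 and 30.3 CPM in WT mice and 28.6, 33.9 and 33.3 CPM in *Sirt7* KO mice. It overlapped as well, with an interval of 0.742 to 1.23 in fold.

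*Sirt4* (chr5:115478010-115484725), which acts on carbon entry into mitochondrial metabolism, was the member with the largest positive difference on gene counts, while with length offsets and in TPM that of *Sirt7* was larger. It had 9.82, 8.89 and 9.39 CPM in WT mice and 12, 14 and 15.1 CPM in *Sirt7* KO mice. The genotypes did not overlap, and *Sirt7* KO values were the higher ones. The log2 fold change of 0.55 ± 0.19 did not pass the correction (edgeR, unadjusted p = 0.016, adjusted p = 0.32), and its interval was 1.09 to 1.96 in fold. Counting only protein-coding transcripts, it was 0.28, and without *Sirt7* KO 1 it was 0.64.

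**Figure D2:**
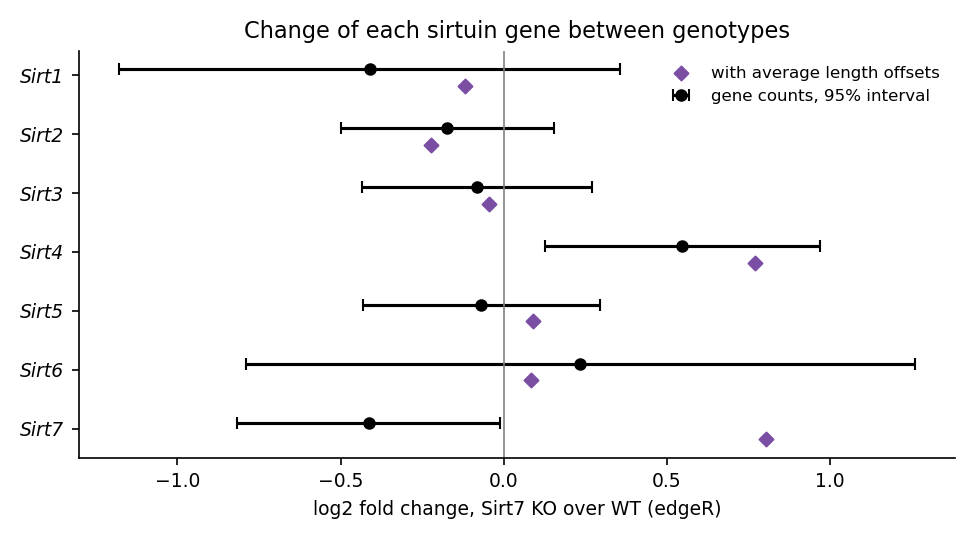
log2 fold change of each sirtuin gene, *Sirt7* KO over WT, from edgeR on 3 mice per genotype. Circles with bars are gene counts with 95% intervals, and diamonds are the same fit with average isoform length offsets. Only the intervals of *Sirt4* and *Sirt7* leave out 0, and the diamond of *Sirt7* lies on the other side, at 0.80.

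*Sirt7* reads were spread over 11 annotated isoforms, and the genotypes differed most in which isoforms these were. *Sirt7-201* (ENSMUST00000080202.11), the only one that codes for both core stretches, had 429, 381 and 408 reads in WT mice and 124, 135 and 77.5 reads in *Sirt7* KO mice. Its share of *Sirt7* reads was 68.6% ± 6.52 in WT and 30.8% ± 11.2 in *Sirt7* KO mice. The genotypes were far apart, but edgeR did not call it (log2 fold change -1.61 ± 0.27, unadjusted p = 0.00093, adjusted p = 0.42).

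*Sirt7-202* (ENSMUST00000106183.2), a short isoform that covers exons 2 and 3 and part of exon 1 and ends before exon 4, showed the opposite. It had 2.12, 5.12 and 0 reads in WT mice and 50.5, 54.1 and 93.3 reads in *Sirt7* KO mice. Its 427 bases code for neither core stretch. The log2 fold change was 4.92 ± 1.14 (edgeR, unadjusted p = 0.0050, adjusted p = 0.55). *Sirt7-207* (ENSMUST00000146809.1), which begins within exon 6 and runs on to exon 10, had 43.0, 0 and 65.3 reads in WT mice and 83.5, 119 and 192 reads in *Sirt7* KO mice. It also codes for neither stretch, and the *Sirt7* KO values lay above the WT range.

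Of the isoforms with a retained intron, *Sirt7-203* had 85.3, 50.1 and 53.2 reads in WT mice and 8.45, 23.9 and 12.2 reads in *Sirt7* KO mice. *Sirt7-204*, which holds exon 4 with intron sequence before it and 87.7% of exon 5, had 10.7, 6.12 and 8.48 reads in WT mice and was listed at 0 in all *Sirt7* KO mice. *Sirt7-209*, which holds exons 2 and 3 and no later exon, had 28.7, 23.9 and 37.8 reads in WT and 16.5, 31.4 and 37.6 reads in *Sirt7* KO mice. The first 2 of these did not overlap between genotypes and the third did. The remaining isoforms (*Sirt7-205*, *Sirt7-206*, *Sirt7-208*, *Sirt7-210* and *Sirt7-211*) had 0 to 65.7 reads and were at 0 in at least 3 of 6 mice.

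**Figure D3:**
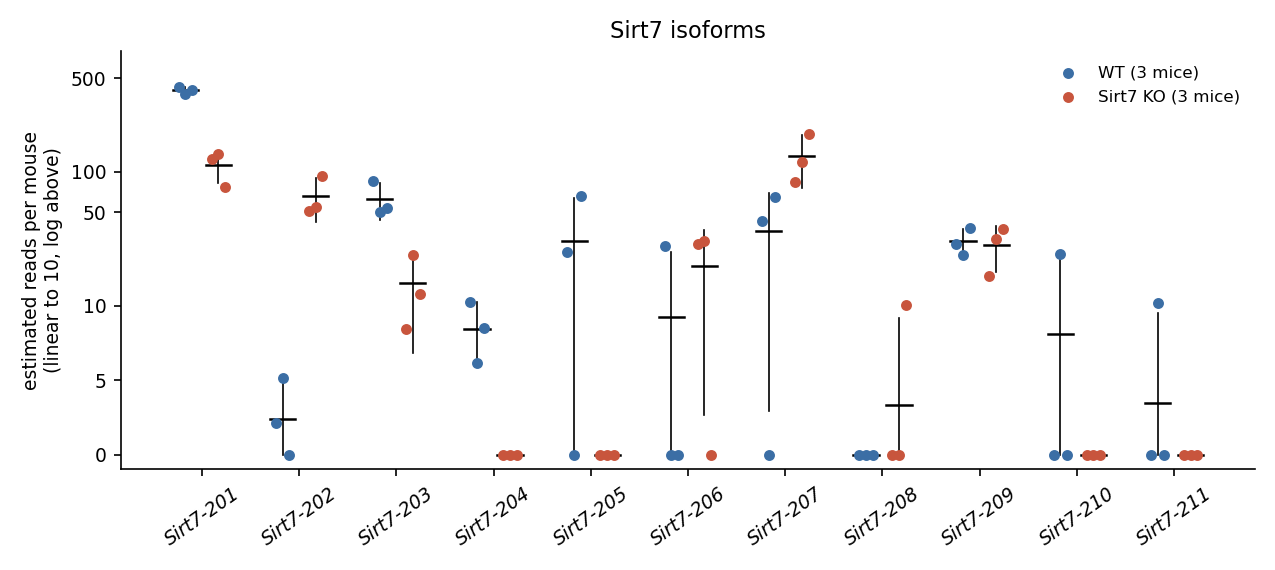
Estimated reads of the 11 *Sirt7* isoforms, 1 point per mouse, for WT (blue) and *Sirt7* KO (red) mice, on an axis that is linear to 10 and logarithmic above, with the mean and ± 1 SD (n = 3, lines stop at 0). *Sirt7-201* and *Sirt7-203* are lower in all *Sirt7* KO mice, and *Sirt7-202* and *Sirt7-207* are higher.

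Which exons the *Sirt7* KO allele lacks is not given in the sources used here, and exons 4 and 5 were singled out with earlier results of these data known, so the shares that follow are a description without a test. The 4 isoforms that cover no base of exons 4 and 5 (*Sirt7-202*, *Sirt7-207*, *Sirt7-209* and *Sirt7-211*) took 11.3%, 7.88% and 16.1% of the gene's reads in WT mice. In *Sirt7* KO mice they took 48.3%, 51.9% and 76.4%. The means were 11.8% ± 4.15 and 58.8% ± 15.3, a difference of 47.1 percentage points with no overlap. By TPM the difference was 61.9 percentage points. Isoforms holding the whole of exon 4 still took 51.7%, 48.1% and 23.6% of *Sirt7* reads in *Sirt7* KO mice, against 83.9% to 92.1% in WT mice. The share on isoforms with exons 7 to 9 differed less, at 66.7% to 78.5% in *Sirt7* KO mice and 90.9% to 93.6% in WT mice. At exon 1 the share was 21.2% to 51.7% in *Sirt7* KO mice and 72.25% to 86.0% in WT mice. At exon 10 it was 21.2% to 42.5% and 72.25% to 90.9%. Some isoforms cover these end exons only in part and are left out there. *Sirt7-201* has no run of 31 bases that no other isoform holds, and *Sirt7-202* and *Sirt7-207* have 30 and 29 such runs. The split of reads between isoforms is thus the estimate of the quantifier and not a count of exon 4 reads. The paper measured *Sirt7* by qRT-PCR in liver and heart of both genotypes, and its captions explain a mark for RNA that was not detected. The captions do not name the group so marked. By sequence, the forward *Sirt7* primer matches exon 3 and the reverse primer matches exon 5. Whether *Sirt7* KO mice hold RNA with exon 4 was not tested here.

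**Figure D4:**
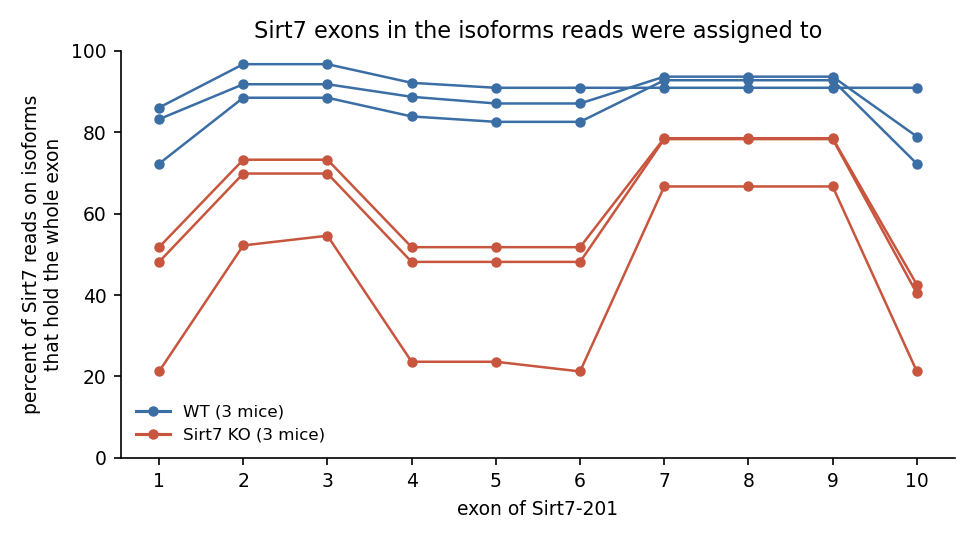
Percent of each mouse's *Sirt7* reads assigned to isoforms that hold the whole of each exon of *Sirt7-201*, 1 line per mouse, WT in blue and *Sirt7* KO in red. In *Sirt7* KO mice the share drops from exon 3 to exons 4 to 6 (at exon 4, 51.7%, 48.1% and 23.6%) and is higher again over exons 7 to 9. It is also low at exon 1 (51.7%, 48.1% and 21.2%) and exon 10 (42.5%, 40.4% and 21.2%). Some isoforms cover these end exons only in part and are left out there.

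Across the family 27 transcripts were tested. edgeR called 0 of them, as it called 0% of 23915 transcripts. At an unadjusted p under 0.05 there were 6, beside 5.35% of all transcripts, and 3 of these 6 were *Sirt7-201*, *Sirt7-202* and *Sirt7-203*. DESeq2 called 2, *Sirt7-201* (adjusted p = 3.3e-06) and *Sirt7-202* (adjusted p = 3.5e-06), where it called 1.46% of 34612 transcripts. Isoform use, the share of each transcript within its gene, was tested with edgeR for the 6 sirtuins with at least 2 tested transcripts. None was called by either of its tests (gene-wise F or Simes), beside 0.668% of 5987 genes for the F test. By edgeR's F test *Sirt7* (adjusted p = 0.39) and *Sirt6* (adjusted p = 0.67) had an unadjusted p under 0.05, beside 2.92% of all genes. Without WT 2, *Sirt7* was called (edgeR, adjusted p = 0.029), where 1.05% of genes were. Without WT 1, *Sirt1* was called (edgeR, adjusted p = 0.031), where 0.832% were.

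The other sirtuins differed in how evenly their reads were spread. *Sirt3* was carried by 1 coding isoform, *Sirt3-202*, with 81.2% ± 2.15 of reads in WT and 85.1% ± 1.84 in *Sirt7* KO mice. Its nonsense-mediated decay isoform *Sirt3-206* (ENSMUST00000210296.1), named after its values were seen, had 66.0, 95.5 and 111 reads in WT mice and 33.3, 34.9 and 47.0 reads in *Sirt7* KO mice. These did not overlap (edgeR, log2 fold change -0.99 ± 0.34, unadjusted p = 0.027, adjusted p = 0.86). *Sirt3* shares 342 exonic bases with *Psmd13* and 418 with *Ric8a* on the opposite strand, and the libraries do not mark strand, so reads there cannot be told apart.

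*Sirt2* reads lay on *Sirt2-202*, with 64.9% ± 6.89 in WT and 55.2% ± 12.2 in *Sirt7* KO mice, and on *Sirt2-201*, with 32.3% ± 7.25 and 32.3% ± 14.5. *Sirt2-209* was near 0 in WT mice (13, 0 and 0 reads) and had 0, 89.1 and 50.5 reads in *Sirt7* KO mice. The genotypes overlapped for all of them, and *Sirt7* KO 1 was at 0 like WT 2 and WT 3.

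*Sirt5* reads lay mainly on 2 isoforms. *Sirt5-209* (ENSMUST00000222106.1), of 4 exons, codes for neither core stretch and had 217, 211 and 188 reads in WT mice and 107, 118 and 80.3 reads in *Sirt7* KO mice. The *Sirt7* KO values lay below the WT range (edgeR, log2 fold change -0.78 ± 0.26, unadjusted p = 0.024, adjusted p = 0.84). *Sirt5-206*, which codes for both stretches, had 113, 154 and 153 reads in WT and 139, 126 and 137 reads in *Sirt7* KO mice. The share of *Sirt5* reads on isoforms coding for both stretches was thus 47.8% ± 7.36 in WT and 65.8% ± 8.17 in *Sirt7* KO mice, without overlap. Of the runs of 31 bases in *Sirt5*, 16.4% also occur in other genes. *Sirt5-206* has no such run that no other isoform holds, so its reads and these shares are the estimate of the quantifier.

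*Sirt6* reads, though few, fell on different coding isoforms in the genotypes. *Sirt6-202* (ENSMUST00000119324.7) had 9.69, 16.0 and 12.8 reads in WT mice and 3.51, 3.74 and 0 reads in *Sirt7* KO mice (edgeR, log2 fold change -2.00 ± 1.15, unadjusted p = 0.13, adjusted p = 1.00). *Sirt6-201* (ENSMUST00000042923.8) had 3.31, 0 and 0 reads in WT mice and 12.7, 13.3 and 11 reads in *Sirt7* KO mice (edgeR, log2 fold change 3.68 ± 1.39, unadjusted p = 0.038, adjusted p = 0.91). Neither overlapped between genotypes. The 2 proteins differ in length, at 334 codons for *Sirt6-201* and 294 for *Sirt6-202*, and both hold both core stretches.

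*Sirt4* and *Sirt1* had unstable isoform splits within a genotype. *Sirt4-202* had 42.4, 0 and 103 reads in WT mice and 56.7, 53.8 and 91.1 reads in *Sirt7* KO mice, and *Sirt4-201* held the reads of WT 2 instead, with 49.4. *Sirt1* reads of WT 2 and WT 3 were on the coding *Sirt1-202* (29.0 and 34.0 reads), while those of WT 1 and of *Sirt7* KO 2 and *Sirt7* KO 3 were on the nonsense-mediated decay isoform *Sirt1-205* (41.0, 19.0 and 17.5 reads). *Sirt1-202* and *Sirt1-205* have 28 and 154 runs of 31 bases of their own. With 21 to 47 *Sirt1* reads per mouse, the split moved from 1 isoform to another between mice of the same genotype.

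**Figure D5:**
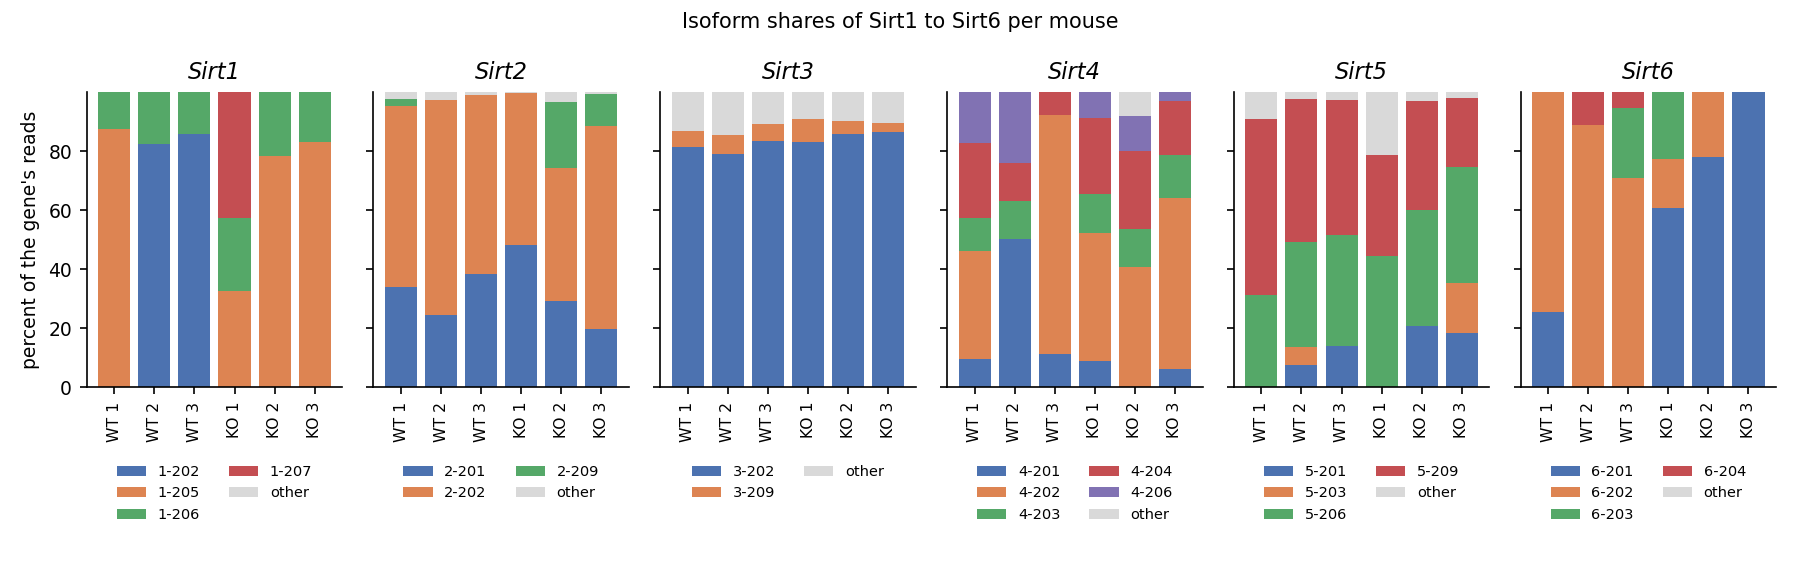
Percent of each gene's reads on its isoforms in each of 6 mice, for *Sirt1* to *Sirt6*, with 1 bar per mouse and colors for isoforms that reach 5% in either genotype. *Sirt3* is uniform across mice, and *Sirt1* and *Sirt4* vary within a genotype. Isoforms of *Sirt4*, *Sirt5* and *Sirt6* have shares that do not overlap between genotypes, with 11 to 21 reads per mouse for *Sirt6*. With all 6 mice edgeR called isoform use for none of the genes tested here.

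Genes that set the supply of NAD, the cosubstrate of all sirtuins, were examined next, including enzymes that make it and enzymes that divert its precursors. Of 21 such genes 19 were tested, none was called, and 5 were higher and 1 lower at an unadjusted p under 0.05, beside 6.54% higher and 4.78% lower of all genes. Their median log2 fold change was 0.14 and that of all genes -0.0061. *Nampt*, which makes the NAD precursor from nicotinamide, had 25.6, 25.4 and 34.3 CPM in WT mice and 21.2, 15.9 and 17.8 CPM in *Sirt7* KO mice (edgeR, log2 fold change -0.63 ± 0.18, adjusted p = 0.24). It was lower in all *Sirt7* KO mice. *Acmsd*, which diverts tryptophan breakdown away from NAD, had 5.67, 8.07 and 8.14 CPM in WT mice and 10.6, 40.4 and 29.1 CPM in *Sirt7* KO mice (edgeR, log2 fold change 1.87 ± 0.42, adjusted p = 0.17). *Sirt7* KO 1 was closest to the WT mice. *Kynu* and *Haao*, enzymes of the same pathway, had log2 fold changes of 0.55 and 0.60 and overlapped.

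Among the other NAD consumers, 4 of 14 tested genes were higher and 1 lower at an unadjusted p under 0.05, beside 6.54% higher and 4.78% lower of all genes, with a median log2 fold change of 0.21. *Parp12*, an ADP-ribosyltransferase induced by interferon, had 7.11, 9.62 and 14.1 CPM in WT mice and 27.1, 23.0 and 22.2 CPM in *Sirt7* KO mice (edgeR, adjusted p = 0.15). *Parp14*, another such enzyme, had 4.35 to 5.93 CPM in WT and 6.68 to 15.2 CPM in *Sirt7* KO mice, and *Parp3*, a DNA repair enzyme, had 16.9 to 22.1 CPM and 25.6 to 28.8 CPM. None of these 3 overlapped between genotypes, beside 16.8% of all genes. They were named for their p on the same values, so this adds no support. *Tnks2*, a tankyrase, had a log2 fold change of -0.52 and overlapped. Of 10 tested zinc-dependent deacetylases, which need no NAD, 1 was higher at that p, beside 6.54% of all genes, so this list is near the background. This was *Hdac5*, a class II deacetylase, with 22.5 to 24.9 CPM in WT and 28.6 to 36.8 CPM in *Sirt7* KO mice.

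Of 18 tested regulators and partners of sirtuins, 1 was higher and 1 lower at an unadjusted p under 0.05, beside 6.54% higher and 4.78% lower of all genes, which is near the background. *Arntl*, the clock gene whose product drives *Nampt*, had 1.11 to 4.57 CPM in WT and 4.05 to 10.2 CPM in *Sirt7* KO mice, which overlapped. *Crtc2*, a coactivator of fasting glucose production that SIRT1 deacetylates, had 30.3 to 37.1 CPM in WT and 24.6 to 27.7 CPM in *Sirt7* KO mice, without overlap. The medians of this list and of all genes were -0.022 and -0.0061 in log2 fold change.

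Of 20 nuclear and cytosolic substrates of sirtuins, 3 were higher and 3 lower at an unadjusted p under 0.05, beside 6.54% higher and 4.78% lower of all genes, and none was called. *Acss2*, the cytosolic acetyl-CoA synthetase, had 37.6, 59.2 and 63.5 CPM in WT mice and 72.3, 388 and 208 CPM in *Sirt7* KO mice (edgeR, log2 fold change 2.06 ± 0.51, adjusted p = 0.19). *Hmgcs1*, of sterol synthesis, had 51.6 to 105 CPM in WT and 116 to 320 CPM in *Sirt7* KO mice. *Sirt7* KO 1 was the lowest *Sirt7* KO mouse for both. *Srebf1*, which drives lipid synthesis, had a log2 fold change of 1.05 and overlapped. *Npm1*, a nucleolar protein, had 75.8 to 95.8 CPM in WT and 44.5 to 73.4 CPM in *Sirt7* KO mice.

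Of 19 tested mitochondrial substrates 3 were lower and none higher at that p, beside 6.54% higher and 4.78% lower of all genes, while the median of the list was 0.063. *Acadl*, a dehydrogenase of fatty acid oxidation, had 297, 350 and 288 CPM in WT mice and 243, 206 and 213 CPM in *Sirt7* KO mice (edgeR, log2 fold change -0.50 ± 0.15, adjusted p = 0.25). *Hadha*, of the same pathway, had 188 to 282 CPM in WT and 148 to 181 CPM in *Sirt7* KO mice. Neither of them overlapped between genotypes, beside 16.8% of all genes. As they were named for their p on the same values, this adds no support.

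Among genes with a mean of at least 10 CPM, the one most alike to each sirtuin over the 6 mice, by Pearson's r of log2(CPM + 0.5), was *Lsg1* for *Sirt1* (r = 0.989), *Kbtbd4* for *Sirt2* (0.985) and *Mpc1-ps* for *Sirt3* (0.994). For *Sirt4* it was *Slc22a7* (0.995), for *Sirt5* *Psmc4* (0.982), for *Sirt6* *Hsd17b7* (0.979) and for *Sirt7* *Slco1a4* (0.995). Each is the best of 6679 or 6680 genes over 6 points that share libraries and genotype, so these values are high by selection. Of these, *Slc22a7*, an organic anion transporter, had 15.7, 9.53 and 9.76 CPM in WT mice and 43.1, 84.2 and 112 CPM in *Sirt7* KO mice (edgeR, adjusted p = 0.055). Between sirtuins, r over the 6 mice was 0.86 for *Sirt2* and *Sirt3*, 0.81 for *Sirt2* and *Sirt5* and -0.79 for *Sirt1* and *Sirt4*.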

How the data were processed

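Liver RNA-seq of 3 WT and 3 *Sirt7* KO mice was used. The authors trimmed reads with Trim Galore 0.6.5, quantified them with Salmon 1.2.1 on GRCm38 and deposited, per mouse and transcript, the estimated count and TPM. The libraries do not mark strand. Transcripts were assigned to genes of GENCODE M21 (139172 of 140992 matched with the same version, 619 with another, 1201 had no gene and were left out). Counts were summed per gene and rounded. edgeR 4.0.16 (R 4.3.3) tested 12524 genes and 23915 transcripts passing filterByExpr (minimum count 10), scaled by TMM, with p-values adjusted by Benjamini-Hochberg across the whole table, and diffSpliceDGE tested isoform use. DESeq2 1.42.0, with and without length offsets, was an alternative. Standard errors were taken from the log2 fold change and the F statistic. On simulated data the gene test found most changed genes, while the transcript and isoform use tests missed nearly all moderate and many very large changes and the isoform use test also made false calls, so its calls and their absence weigh little. Sequences were handled with Python 3.11.15. Members, gene lists and tests were chosen with earlier results of these data known. All 7 sirtuins and all *Sirt7* isoforms are named, with other isoforms that reach 5% of a gene's reads in either genotype, list members with unadjusted p under 0.05 (at most 4 per list), and the most alike gene of each sirtuin. *Sirt3-206*, *Alas2*, *Hbb-bs* and genes that overlap a sirtuin were chosen after their values were seen. Values of some list members are not reported here. The mice are separate animals, so p-values measure the spread between mice. For transcripts and isoform use they also hold the uncertainty of the read split between isoforms, which was not modelled.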

Additional observations from a re-analysis of the deposited data

How the results depend on the processing

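None of the 7 sirtuins was called as a gene in any of 14 alternatives, which were other normalizations, no filter, DESeq2, length offsets, coding transcripts only, the replicate block and leaving out each mouse. Length offsets turned the sign of *Sirt7* (0.80 with edgeR, 0.81 with DESeq2) and of *Sirt5* (0.090 and 0.098), and the cause was not tested. The average length of *Sirt7* used there includes the short *Sirt7-202*, with 20.2, 26.8 and 42.4 TPM in *Sirt7* KO mice. In WT mice that isoform had 0.913, 2.09 and 0 TPM. Leaving out each mouse, *Sirt5* ran from -0.13 to 0.068 (positive without WT 2 and without *Sirt7* KO 1), *Sirt3* from -0.17 to 0.046 (positive without *Sirt7* KO 1), and *Sirt7-209* from -0.038 (without *Sirt7* KO 3) to 0.49. Called sirtuin transcripts were 2 with DESeq2 and 0 in the other settings. Sirtuins with changed isoform use were 0 to 1 when a mouse was left out. The difference in the *Sirt7* share without exons 4 and 5 ran from 38.3 to 61.9 percentage points. It was lowest without *Sirt7* KO 3, 54.0 with coding isoforms only and highest by TPM. Counting TPM of coding transcripts only kept the place of 3 of 7 sirtuins in the WT order. Scaling by total counts moved the median of all genes to -0.11. Deviations of mice of the same number in the 2 genotypes had small correlations (0.065, 0.080 and -0.044). So few values cannot decide whether the numbers mark pairs. WT 1 and WT 2, but not WT 3, correlated best with their own number. With the replicate block the *Sirt7* log2 fold change was -0.43 (edgeR, unadjusted p = 0.069), 0 sirtuins, 0 of their transcripts and 0 for isoform use were called, and the count over all genes was 41 instead of 1. That count was 633 without the filter, 256 with DESeq2, 245 with DESeq2 and length offsets, and 0 to 252 when a mouse was left out. Depth limits *Sirt1* and *Sirt6*, with 11 to 47 reads per mouse.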
